A study of Mus musculus with 30 samples.

Results

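The RNA levels of 10 glycolysis genes were followed in blood platelets and peripheral blood mononuclear cells (PBMCs) of C57BL/6 mice with and without B16F10 melanoma cells. The genes were listed by name, with earlier results of these data known, as the glucose transporter Slc2a3 and the enzymes Hk1, Pfkp, Aldoa, Tpi1, Gapdh, Pgk1, Eno1, Pkm and Ldha, and they are 10 of the 54532 genes in the count tables. All mice were female, aged 6 to 8 weeks at the start, and blood was taken 14 days after a subcutaneous injection. C group received the carrier solution HBSS alone, S group a suboptimal number of 2000 B16F10 cells, and O group an optimal number of 100000 B16F10 cells. Each group and tissue had 5 libraries, 30 in all, and each library was made from RNA pooled over several mice. By the labels, platelet pools held 3 to 5 mice in O group, 10 in S group and 5 to 10 in C group, although the methods give slightly different sizes for some S group pools, and PBMC pools held 3 to 5 mice in O group, 4 to 5 in S group and 5 in C group. PBMCs were taken from the lower layer of the blood that gave the platelets, so the libraries of the 2 tissues may share mice, although which pools do is not stated. In O group alone, all pool sizes match by number between the tissues. O group mice carried palpable tumors at that time and S group mice had none to see, and which of the S group mice carried a hidden tumor, or would ever have formed one, is not given in the labels. The paper reports that most mice given this suboptimal number formed no visible tumor, and that its pools included mice that may never form one.

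Glycolysis splits glucose into pyruvate in the cytosol and yields ATP without oxygen. Slc2a3 carries glucose into the cell, and Hk1 traps it as glucose 6-phosphate. Pfkp catalyses the committed step, Aldoa cleaves the sugar, and Tpi1 interconverts the products. Gapdh and Pgk1 carry out the oxidation and the first ATP yield, Eno1 makes phosphoenolpyruvate, Pkm makes pyruvate and ATP, and Ldha turns pyruvate into lactate. Platelets have no nucleus, so their RNA is inherited from megakaryocytes, and they draw on both glycolysis and mitochondria when activated. Most steps have several isoenzymes encoded by separate genes, and which of them a cell uses is a classic marker of cell type. The counts are per gene, so isoenzymes can be compared, while splice forms of a single gene such as Pkm cannot.

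Total counts ranged from 12259036 to 25360080 per platelet library and from 13390983 to 15973449 per PBMC library. The 10 most abundant genes of a library took 26.6% to 48.0% of the counts in platelets and 6.00% to 30.6% in PBMCs, and TMM factors, which correct for this, ranged from 0.386 to 1.01 and from 0.931 to 1.77. Levels are given as CPM, which are counts scaled to one common library size with these factors. The 14 platelet markers summed to 2.35% to 6.48% of counts in platelet libraries and 0.123% to 0.725% in PBMC libraries. The 11 erythroid markers took 4.18% to 41.3% and 3.35% to 27.4%, with the highest PBMC values in O group. The 8 T cell markers, all detected in every library, summed to 57.7 to 321 CPM of the library total in platelets and 352 to 1327 CPM in PBMCs. In pooled bulk RNA, fewer cells of a type cannot be told apart from less RNA per cell.

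Of the 10 genes, 8 were higher in platelets than in PBMCs and 1, Pfkp, was lower at an adjusted P under 0.05 (edgeR quasi-likelihood test on the 30 libraries together, with a term for group). Gapdh had no call in either direction. Among all 15773 genes tested, 81.2% were called, 36% higher and 45.2% lower, so a call by itself says little here, and the sizes carry the comparison. With the replicate number as a block, which pairs a platelet with a PBMC library, 10 genes were called, Gapdh being added as the second one lower in platelets. The median log2 fold change over the 10 genes was 1.97, against -0.15 over all genes. Slc2a3 and Tpi1 differed by the most, at 3.56 ± 0.23 (SE) and 3.32 ± 0.17 on the log2 scale. They were followed by Hk1 at 2.80 ± 0.20, Aldoa at 2.41 ± 0.18, Pkm at 2.26 ± 0.17 and Pgk1 at 1.68 ± 0.12. Ldha at 0.95 ± 0.10 and Eno1 at 0.55 ± 0.11 were closer to the median gene. With library totals alone in place of TMM factors, the median of all genes moved to -1.37, and 6 of the 10 genes were called higher and 4 lower in platelets. The shares of all genes called with library totals and with the block are not given here, so these counts have no background. Eno1 turned to -0.69 (adjusted P = 2.2e-05 by edgeR) and Ldha to -0.30 (adjusted P = 0.017 by edgeR), each called in the opposite direction, and Gapdh, at -2.18 (adjusted P = 5.1e-05 by edgeR), joined Pfkp. Measured from the median gene, Eno1 was 0.70 with TMM factors and 0.68 with library totals, and Ldha was 1.11 and 1.07. For these genes the difference from the median gene was almost the same under both scalings, while the fitted sign was not.

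**Figure D1:**
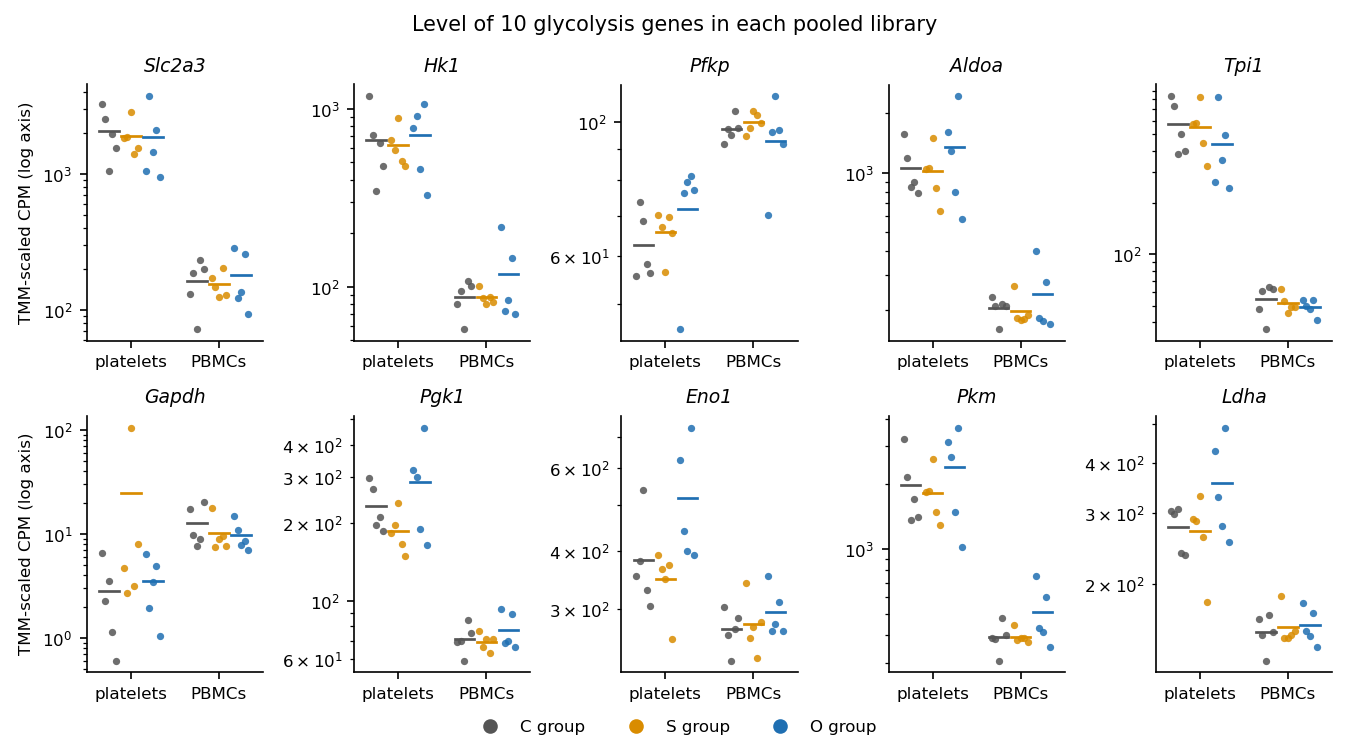
TMM-scaled CPM (log axis) of the 10 genes in every library, by tissue and group; each point is a pooled library and each short line is the mean of 5 libraries. For Slc2a3, Hk1, Aldoa, Tpi1, Pgk1 and Pkm every platelet library lies above every PBMC library, and for Gapdh 1 platelet library of S group stands at 105 CPM. Scaled by library totals Tpi1 overlaps, and how many of all genes separate the tissues this way is not given here.

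**Figure D2:**
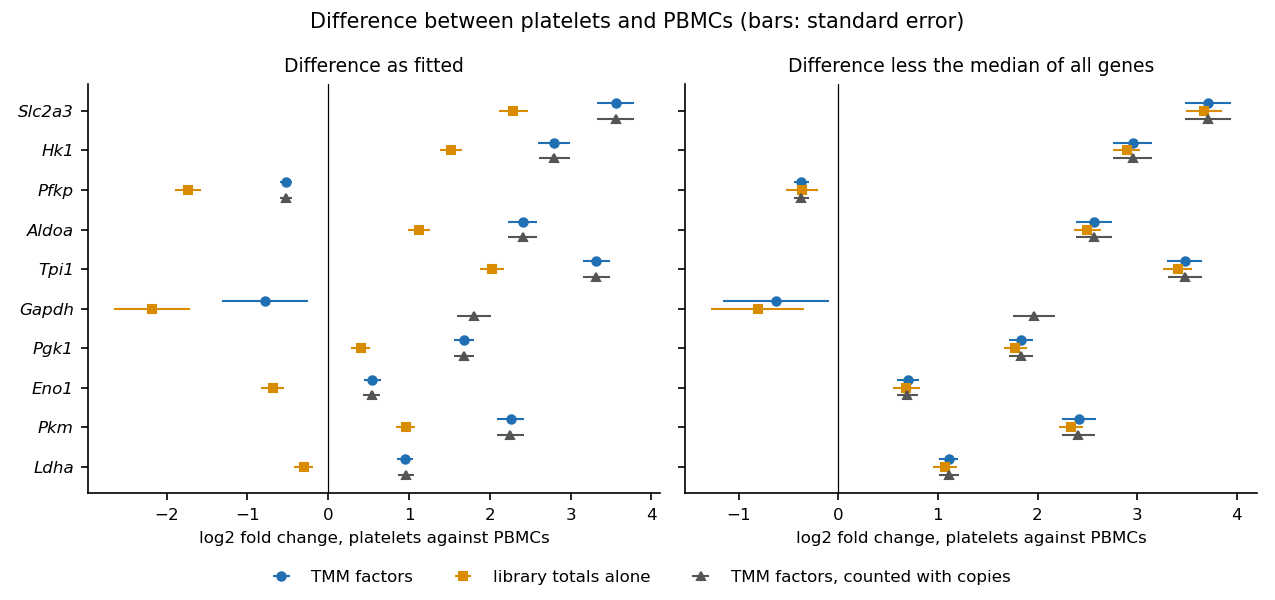
Log2 fold change of platelets against PBMCs for each gene (points) with its standard error (bars), under TMM factors, under library totals alone and with each gene counted together with its near-identical copies; the right panel subtracts the median of all genes. Eno1 and Ldha cross 0 between scalings in the left panel but not in the right one, and Gapdh moves from -0.78 to 1.81 when its copies are added.

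The RNA of genes for uptake and trapping of glucose differed between the tissues in level and in isoenzyme. Slc2a3, a high-affinity transporter on neurons and platelets, ranged from 951 to 3741 CPM in platelets (median 1857) and from 72.2 to 286 CPM in PBMCs (median 147). The lowest platelet library was above the highest PBMC library. How many of all genes separate tissues or groups this way is not given here, so lack of overlap stands without a background. Its relative Slc2a1, a broadly expressed glucose transporter, was lower in platelets at -1.95 ± 0.20 on the log2 scale (edgeR adjusted P = 2.1e-10). Slc2a3 took 98.8% ± 0.84 (SD, n = 15) of the reads per kilobase of the pair in platelets and 68.0% ± 8.64 in PBMCs. The PBMC share had the largest SD of the 6 families, from 50.05% in C group replicate 3 to 80.6% in C group replicate 5. Shares depend on the gene lengths used, and from counts with no length correction the Slc2a3 difference between tissues was 18.3 percentage points in place of 30.8.

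Hk1, the hexokinase that binds mitochondria, ranged from 327 to 1179 CPM in platelets (median 641) and from 57.5 to 217 CPM in PBMCs (median 86.3), again without overlap. Hk2, the insulin-responsive form, was lower in platelets by 1.16 ± 0.14 on the log2 scale, and Hk3, a form of myeloid cells, by 1.29 ± 0.21. Hk1 made up 92.4% ± 4.45 of hexokinase reads per kilobase in platelets and 45.8% ± 4.42 in PBMCs (n = 15 each). This difference of 46.6 percentage points was the largest of the 6 families (permutation test, 100000 resamples, two-sided, adjusted P = 8.4e-05 over 42 tests, the smallest these resamples allowed). With platelets and PBMCs of the same group and number taken as 15 pairs, the Hk1 share was higher in platelets in 15 of 15 pairs (exact permutation test by sign flips, adjusted P = 7.3e-05 over 6 tests). The 5 other families kept their direction and their call under this pairing too. The same held for all 6 when the length of 1 representative transcript per gene, or no length at all, replaced the length of all exons, and the Hk1 difference was then 33.5 and 34.4 percentage points, again the largest. The share in platelets was lowest in O group replicate 1, at 83.6%, and the share in PBMCs was highest in O group replicate 1, at 53.1%, so the ranges did not meet.

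Pfkp is named after the platelet, but it was the 1 gene of the 10 that was called lower there. It ranged from 45.5 to 81.3 CPM in platelets (median 68.7) and from 70.2 to 110 CPM in PBMCs (median 97.2), and the log2 fold change was -0.53 ± 0.08 (adjusted P = 2.1e-07 by edgeR). The ranges overlapped, and within O group alone the difference was -0.37 with an adjusted P of 0.098. The other phosphofructokinases were higher in platelets, Pfkl, the liver type, by 0.53 ± 0.11 and Pfkm, the muscle type, by 1.06 ± 0.14 on the log2 scale. Pfkp held 32.6% ± 6.61 of the family's reads per kilobase in platelets and 52.1% ± 3.54 in PBMCs (n = 15 each, adjusted P = 8.4e-05 by the same permutation test). Per kilobase of all exons, Pfkl had the highest level in platelets, 6.89 ± 2.25 CPM per kilobase, followed by Pfkp at 4.98 ± 0.77 and Pfkm at 3.84 ± 1.33. In PBMCs the order was Pfkp at 7.21 ± 0.66, Pfkl at 4.76 ± 0.38 and Pfkm at 1.84 ± 0.23. The order in platelets rests on the length, since the exons of Pfkp add up to 13401 bases and its representative transcript has 4145. Per kilobase of that transcript Pfkp stood first in platelets, at 16.1 ± 2.50 against 12.3 ± 4.03 for Pfkl, and was above Pfkl in 13 of 15 libraries, as against 2 of 15 with all exons. The platelet share of Pfkp was then 49.6% ± 7.73, and from plain counts 53.7% ± 7.75, against 68.5% ± 3.24 and 71.7% ± 3.11 in PBMCs. The difference between tissues moved little, from -19.6 to -18.9 and -18.0 percentage points. The platelet shares of O group, with the length of all exons, spread the widest, with 17.7%, 40.4%, 41.2%, 22.7% and 39.7% in replicates 1 to 5. Replicates 1 and 4, the low pair, had the highest Pkm of O group, at 3112 and 3640 CPM, but replicate 2 was near them at 2665 CPM with a share of 40.4%.

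**Figure D3:**
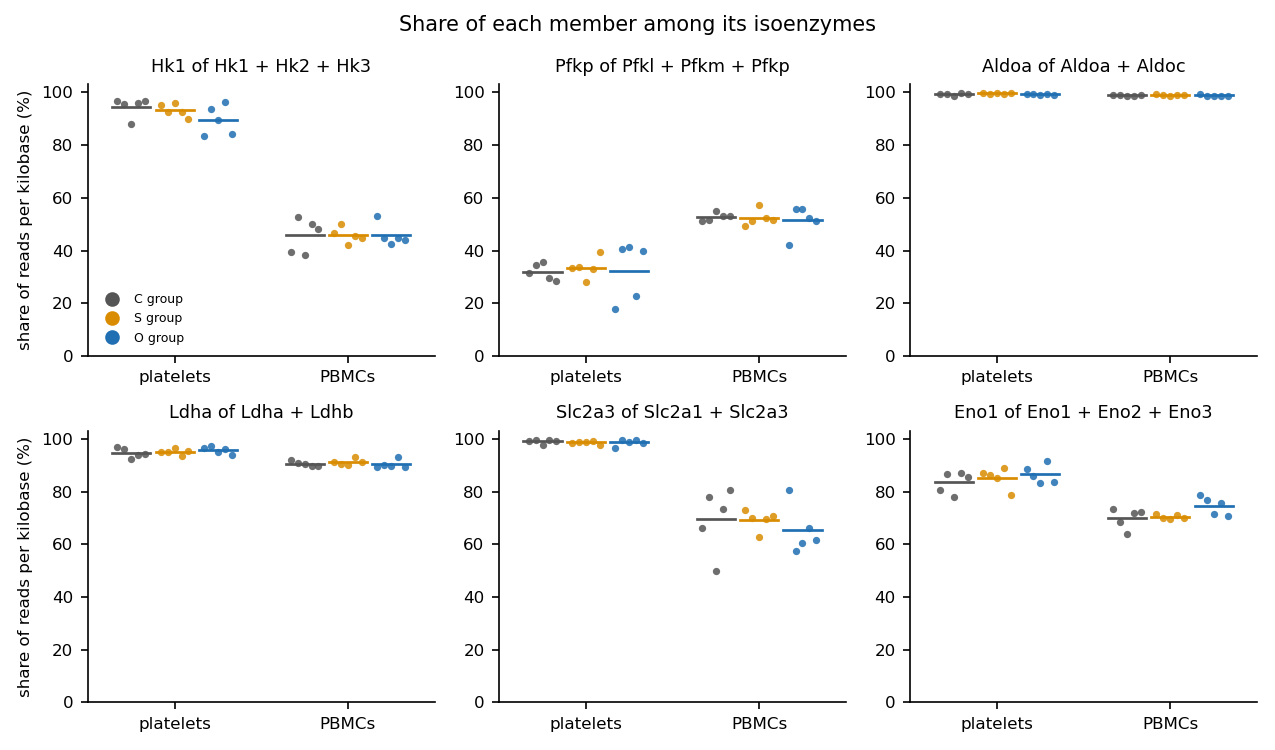
Share in percent of the reads per kilobase of an isoenzyme family held by the named gene, in every library by tissue and group, with the group mean as a short line. Hk1 stands near 92% in platelets and 46% in PBMCs, Pfkp is lower in platelets, and Aldoa stays near the top in both tissues.

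Aldoa and Tpi1, the consecutive steps that make triose phosphates, were both high in platelets. Aldoa ranged from 582 to 2449 CPM in platelets (median 1041) and from 159 to 400 CPM in PBMCs (median 187). Tpi1 ranged from 242 to 835 CPM in platelets (median 494) and from 36.5 to 64.7 CPM in PBMCs (median 49.7). Both were free of overlap with TMM factors, but Tpi1 overlapped when scaled by library totals. Aldoa was nearly the sole aldolase of its pair in both tissues, with 99.4% ± 0.31 in platelets and 98.9% ± 0.25 in PBMCs against Aldoc, the form known from brain. The difference of 0.50 percentage points became 0.31 with representative transcripts.

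Of the lower steps, Pkm ranged from 1023 to 3640 CPM in platelets (median 1847) and from 306 to 753 CPM in PBMCs (median 389). Pgk1 ranged from 149 to 465 CPM in platelets (median 196) and from 58.8 to 93.4 CPM in PBMCs (median 70.4). Neither gene overlapped between the tissues with TMM factors. Ldha ranged from 180 to 491 CPM (median 291) in platelets and from 128 to 187 CPM (median 152) in PBMCs. Eno1 ranged from 259 to 733 CPM (median 381) in platelets and from 233 to 353 CPM (median 274) in PBMCs. Platelets and PBMCs overlapped for both genes. Ldha held 95.2% ± 1.41 of the reads per kilobase of Ldha and Ldhb in platelets and 90.7% ± 1.22 in PBMCs, where Ldhb is the form that favours pyruvate. Eno1 held 85.1% ± 3.75 of the enolase reads per kilobase in platelets and 71.7% ± 3.59 in PBMCs, and most of the rest was Eno3, the muscle enolase. Both differences had an adjusted P of 8.4e-05 by the permutation test. Their sizes depended on the length correction, and from plain counts the Eno1 share was 94.5% and 88.6%, a difference of 5.95 in place of 13.4 percentage points, and the Ldha difference was 2.28 in place of 4.46. With representative transcripts the Eno1 difference was 7.36 percentage points.

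Compared per kilobase of exon, Pkm and Aldoa had the most assigned counts of the 10 in both tissues, and Gapdh, where counted without its copies, the fewest. In platelets the order was Pkm (412 ± 161 CPM per kilobase, SD, n = 15), Aldoa (391 ± 168), Slc2a3 (269 ± 114), Tpi1 (189 ± 74.7), Pgk1 (105 ± 37.3), Ldha (90.9 ± 23.0), Hk1 (78.4 ± 30.0), Eno1 (77.3 ± 23.3), Pfkp (4.98 ± 0.77) and Gapdh (2.50 ± 6.35). Within a library Pkm was above Aldoa in 13 of 15 libraries, but Hk1 was above Eno1 in only 8 of 15 and Ldha above Hk1 in 10 of 15, so these neighbours were not separated. In PBMCs the order was Pkm (86.5 ± 22.1), Aldoa (73.8 ± 21.2), Eno1 (52.5 ± 6.23), Ldha (46.8 ± 4.60), Pgk1 (32.5 ± 4.22), Slc2a3 (23.0 ± 8.43), Tpi1 (18.9 ± 2.96), Hk1 (11.4 ± 4.54), Pfkp (7.21 ± 0.66) and Gapdh (2.66 ± 1.05). Slc2a3 thus stood at rank 3 in platelets and at rank 6 in PBMCs, and was above Tpi1 in 11 of 15 PBMC libraries. The last place of Gapdh in platelets depended on how it was counted, since with its near-identical copies it had 18.2 ± 10.3 CPM per kilobase, above Pfkp, while in PBMCs it stayed last at 5.20 ± 1.3. Reads that match several places may be missing from both counts, so the rank of Gapdh need not be that of its RNA. Its platelet mean also rests on 1 library, and without S group replicate 3 it was 0.87 ± 0.54 CPM per kilobase alone (n = 14) and 16.1 ± 6.83 with copies. With the length of 1 representative transcript per gene in place of all exons, Pkm stayed first and Gapdh last in both tissues, Eno1 moved up to rank 5 in platelets and to rank 2 in PBMCs, and Pgk1 moved down to rank 8 in platelets.

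Gapdh has many near-identical copies in the mouse genome. Among the transcripts of GENCODE M21, 130 other genes matched at least 90% of the bases over at least 80% of the Gapdh coding sequence, 129 of them pseudogenes, and 93.9% of the 100-base words of that sequence recur elsewhere. Over the 15 platelet libraries 1539 counts were assigned to Gapdh and 10849 to its copies, and over the 15 PBMC libraries 3803 and 3593. The copies took 82.4% to 98.6% of these counts in 14 platelet libraries, 46.0% in S group replicate 3, and 34.4% to 65.7% in PBMC libraries. The copy with the most counts was Gm5069, a transcribed processed pseudogene, with 4855 in platelets and 526 in PBMCs. Its matching stretch is 95.5% identical to the Gapdh coding sequence. It was followed by Gm7336 with 2953 and 454, whose matching stretch is 100% identical to that sequence. How much of the copy counts comes from transcription of the copies themselves was not tested. How reads that match several places were treated is not given in the sources used here.

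Counted alone, Gapdh ranged from 0.605 to 105 CPM in platelets (median 3.45) and from 7.03 to 20.2 CPM in PBMCs (median 8.97), and platelets differed by -0.78 ± 0.53 on the log2 scale (edgeR adjusted P = 0.18). Counted with its copies it was higher in platelets, 75.2 ± 42.7 CPM against 21.5 ± 5.36 CPM (SD, n = 15 each), and the log2 fold change became 1.81 ± 0.21 (adjusted P = 4.4e-09 by edgeR). Without S group replicate 3 of the platelets, Gapdh alone had a log2 difference of -1.62 (adjusted P = 5.00e-06 by edgeR), and with the replicate number as a block and every library kept it was -1.48 (adjusted P = 0.0014 by edgeR). Gapdh alone was also called lower in platelets with limma voom (-1.67, adjusted P = 0.00018) and within C group (-2.14, adjusted P = 0.0014 by edgeR) and O group (-1.51, adjusted P = 0.011 by edgeR), while within S group, which holds replicate 3, it was 1.44 and not called (adjusted P = 0.16 by edgeR). The direction of the tissue difference thus depended on how the copies were counted, and the sum with copies need not be the level of Gapdh itself. None of the other 9 genes turned or lost its call when copies were added. Slc2a3, Hk1 and Pfkp had no copy, Aldoa 3, Tpi1 1, Pgk1 2, Pkm 4, Eno1 6 and Ldha 6. For Pgk1 every 100-base word of the coding sequence recurs in a copy, yet its copies held 117 counts in platelets and 74 in PBMCs, against 40161 and 24772 for the gene itself.

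**Figure D4:**
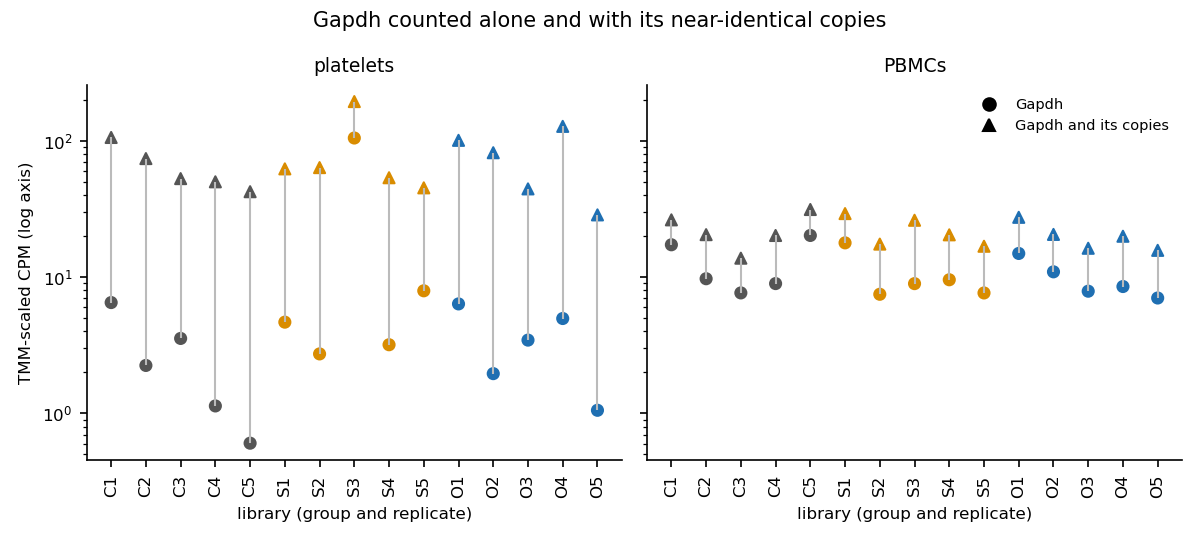
TMM-scaled CPM (log axis) of Gapdh alone (circles) and of Gapdh with its near-identical copies (triangles) in each of the 15 platelet and 15 PBMC libraries, coloured by group. In platelets the copies raise the value of most libraries more than 10 times, and S group replicate 3 is the only platelet library whose Gapdh count exceeds that of the copies.

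Gapdh was also 1 of the 5 reference genes used for quantitative PCR in the study, so the bases its primers amplify are shown with the primer sites in capitals, 5′ to 3′ on the coding strand. The forward primer is catcaccatcttccagga and the reverse primer is tagactccacgacatactc.
Gapdh: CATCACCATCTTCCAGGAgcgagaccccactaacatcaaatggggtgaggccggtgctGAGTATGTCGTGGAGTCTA
The stretch is 77 bases long and starts at base 291 of the coding sequence of Gapdh, a gene at chr6:125161715-125166467 on the minus strand (GRCm38). Transcripts of 59 other genes matched both primers exactly, 46 of them among the 130 copies, and 26 copies held the same 77 bases without a difference. Gm7336 on chromosome 7, Gm5559 on chromosome 5 and Gm12070 on chromosome 11 are the 3 of these with the most counts, at 2953, 862 and 496 in platelets. The match is a property of the annotated sequences and was not set against any PCR value.

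The spread of the other reference genes puts that of Gapdh in context. The SD of log2(CPM + 1) over 15 platelet libraries was 1.41 for Gapdh, and was 0.27 for Actb, the cytoskeletal actin, 0.51 for Gusb, a lysosomal enzyme, 0.64 for Oaz1, an inhibitor of polyamine synthesis, and 0.72 for Gnas, a G protein subunit. In PBMCs it was 0.47 for Gapdh, 0.28 for Actb, 0.17 for Gusb, 0.87 for Oaz1 and 0.46 for Gnas. The platelet value for Gapdh rests largely on S group replicate 3, without which it was 0.75, beside 0.75 for Gnas and 0.65 for Oaz1 in the same 14 libraries. Counted with its copies, Gapdh had an SD of 0.70 in platelets, 0.58 without that library, and 0.34 in PBMCs. Both ways of counting hold assigned reads only, and reads that match several places may be missing from them. Of the 5 reference genes 2 were called lower in PBMCs of S group against O group (background 7.8% lower). In platelets 1 was called higher in S group against C group (6.42%), and 1 higher and 1 lower against O group (13.9%). For PBMCs of O group against C group 2 were called higher (11.9% in either direction). Oaz1 differed between PBMCs of O group and C group by 1.74 ± 0.46 on the log2 scale, past the unadjusted threshold of 0.05 (adjusted P = 0.34 by edgeR). In that comparison 11 of 11 erythroid markers were higher too, with a median log2 fold change of 4.39, and their part in the Oaz1 value was not tested.

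The comparisons of the 3 groups address whether these genes differ in the blood between mice with and without injected tumor cells. S group had no visible tumor and O group palpable ones. Most mice given the S group cell number formed no visible tumor in the paper, so few calls there say little about hidden tumors. At the unadjusted P under 0.05 that the study used, few of the 10 were called, and none passed an adjusted P under 0.05 by edgeR, where the background was 0.00754% in platelets and 0.033% in PBMCs for S group against C group and 0% for the other pairs. With no filter on low counts, Gapdh passed in platelets for S group against C group (adjusted P = 0.031 by edgeR). Every group enters 2 of the 3 comparisons of a tissue, so their counts are not independent. In platelets, S group against C group called 1 gene, Gapdh, against a background of 6.42% of 13268 genes. S group against O group called Gapdh and Eno1, 2 of 10 against a background of 13.9% (7.23% higher and 6.67% lower). O group against C group called 0 of 10 against a background of 4.79%, with 0 also by DESeq2 and by limma voom. The other genes lay between -0.28 and 0.11 on the log2 scale in S group against C group, between -0.55 and 0.43 in S group against O group, and between -0.45 and 0.39 in O group against C group. Markers of other cells moved between the same platelet groups. In S group against O group 7 of 8 T cell, 5 of 7 B cell, 3 of 7 NK cell and 4 of 9 monocyte and macrophage markers were higher, while 5 of 11 erythroid and 6 of 10 tested neutrophil markers were lower. In S group against C group 3 of 8 T cell, 3 of 7 B cell and 2 of 7 NK cell markers were higher. In O group against C group 3 of 8 T cell and 3 of 7 B cell markers were lower, and 4 of 10 tested neutrophil and 2 of 11 erythroid markers higher. Of the 7 melanocyte and melanoma markers 2 were tested, and 1 of them, Mitf, was higher in O group than in either other group, while the 7 summed to 1.5 to 7.85 CPM of the library total in platelets. In PBMCs the 7 summed to 36.6 to 48.5 CPM in C group, which received no tumor cells. They summed to 38.7 to 46.5 CPM in S group and 11.3 to 40.4 CPM in O group. None of the 13 platelet markers tested was called in any of the 3 platelet comparisons by edgeR. The part of these cells in the values below was not tested.

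Gapdh in platelets was 6.51, 2.25, 3.55, 1.14 and 0.605 CPM in C group, 4.67, 2.73, 105, 3.19 and 7.94 CPM in S group, and 6.36, 1.96, 3.45, 4.97 and 1.05 CPM in O group. All groups overlapped, and a single library, S group replicate 3, stood apart with 961 counts against 6 to 107 in the other platelet libraries. The log2 fold change of S group was 3.10 ± 0.99 against C group (adjusted P = 0.75 by edgeR) and 2.89 ± 1.04 against O group (adjusted P = 0.30 by edgeR). Without that library it was 0.75 (adjusted P = 0.81 by edgeR) and 0.47 (adjusted P = 0.76 by edgeR), and counted with its copies 0.39 (adjusted P = 0.83 by edgeR) and 0.20 (adjusted P = 0.87 by edgeR), and none of these 4 values passed the unadjusted threshold. With limma voom neither was called, at 1.94 and 1.18, and DESeq2 gave no P for Gapdh. With the replicate number as a block it was 1.94, still called, and 1.43, not called. The library also had the highest Slc2a3, Hk1, Aldoa, Tpi1, Pgk1, Pkm and Ldha of its group and the highest summed platelet markers of its group. Over the 15 platelet libraries Gapdh correlated with the mean of leukocyte markers at r = 0.52 and rho = 0.70 (permutation test, adjusted P = 0.097 and 0.017 over 50 relations), with r = 0.67 without the 2 farthest libraries and 0.38 within groups. The part of leukocytes in the Gapdh value was not tested.

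Eno1 in platelets was 391, 365, 348, 374 and 259 CPM in S group, 625, 442, 398, 733 and 392 CPM in O group, and 353, 381, 539, 330 and 305 CPM in C group. The highest S group library and the lowest O group library nearly touched, and the groups overlapped when scaled by library totals. The log2 fold change of S group against O group was -0.51 ± 0.23 (adjusted P = 0.35 by edgeR), and with library totals alone it was -0.34 and not called. The call was also lost with the replicate number as a block, at -0.48, with limma voom, at -0.31, with no filter on low counts, at -0.51, and when any of 7 of the 10 libraries was left out, namely each of S group and replicates 1 and 4 of O group, with values from -0.57 to -0.38. DESeq2 called Pgk1 lower in S group than in O group beside Eno1. Aldoc, the minor aldolase, was lower in S group than in O group without overlap (-1.16 ± 0.28, adjusted P = 0.23 by edgeR) and lower than in C group with overlap (-0.96 ± 0.32, adjusted P = 0.75 by edgeR), and both calls were kept without any 1 library. The Aldoa share was 99.3% ± 0.20 in O group and 99.6% ± 0.10 in S group (n = 5 each, exact permutation test, two-sided, P = 0.0079, the smallest 5 against 5 allow, adjusted P = 0.048 over 42 tests). It moved by 0.34 percentage points, and it lost its call with the median as the statistic and when any 1 of the 5 S group libraries was left out, with an adjusted P of 0.14 each time by the exact permutation test. It was the only isoenzyme share with an adjusted P under 0.05 between groups. The next were again Aldoa, 0.34 percentage points higher in platelets of S group than of C group, and Eno1, at 70.5% in PBMCs of S group and 74.7% in those of O group, each with P = 0.040 by the exact permutation test and an adjusted P of 0.19 over 42 tests.

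In PBMCs none of the 10 genes was called in the main fit of any of the 3 comparisons. The background was 2.64% of 15139 genes for S group against C group, 12.2% of 14686 for S group against O group (4.43% higher and 7.8% lower), and 11.9% of 14726 for O group against C group. For S group against C group DESeq2 and limma voom also called 0. The log2 fold changes lay between -0.31 and 0.05 in S group against C group, between -0.52 and 0.04 in S group against O group, and between -0.31 and 0.51 in O group against C group. Pkm came nearest to a call, at -0.45 in S group against O group and 0.46 in O group against C group, and DESeq2 and a single fit of all 3 groups called it in both. In S group against O group it was also called with the replicate number as a block and with no filter on low counts, and in O group against C group neither of these called it. Pkm was 388, 384, 306, 480 and 401 CPM in C group, 447, 380, 389, 389 and 372 CPM in S group, and 753, 431, 414, 599 and 356 CPM in O group. The groups overlapped, and the O group values above the rest were those of replicates 1 and 4, in which Slc2a3 (286 and 260 CPM), Hk1 (217 and 144 CPM) and Aldoa (400 and 276 CPM) were the highest of all PBMC libraries as well. Between PBMCs of O group and C group 11 of 11 erythroid and 1 of 11 neutrophil markers were higher. In the same comparison 7 of 8 T cell and 3 of 7 NK cell markers were lower. In S group against O group 7 of 8 T cell and 7 of 7 NK cell markers were higher. There 11 of 11 erythroid, 3 of 11 neutrophil and 1 of 13 platelet markers were lower.

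The PBMC levels of most of the 10 genes went along with platelet markers. Over the 15 PBMC libraries the mean log2(CPM + 1) of the 14 platelet markers correlated with Slc2a3 at Pearson's r = 0.97 and Spearman's rho = 0.95, and with Hk1 at r = 0.93 and rho = 0.98 (permutation test, 100000 resamples, adjusted P = 1.0e-04 for each over 50 relations, the smallest these resamples allowed). Without the 2 libraries farthest from the median marker level r was 0.96 for Slc2a3 and 0.93 for Hk1, and within groups it was 0.98 and 0.93. Aldoa, Tpi1, Pgk1, Pkm and Ldha also passed an adjusted P under 0.05, with r from 0.74 to 0.88, and r for Ldha fell to 0.49 without the 2 libraries. Pfkp, at r = -0.34 and rho = 0.07, Gapdh, at r = 0.34 and rho = 0.41, and Eno1, at r = 0.60 and rho = 0.46, had adjusted P values over 0.05 for both coefficients. The highest mean marker level was that of O group replicate 1 and the lowest that of C group replicate 3, which was also lowest of all PBMC libraries in Slc2a3, Hk1, Aldoa, Tpi1, Pgk1, Eno1, Pkm and Ldha. Levels of genes and markers share the scaling of their library. In platelet libraries the same markers correlated with Hk1 at r = 0.98, with Pkm at r = 0.97 and with Aldoa at r = 0.93, and with Pfkp at r = -0.20. Pfkp in platelets instead fell with the erythroid markers, at r = -0.82 and rho = -0.78 (permutation test, adjusted P = 0.0016 and 0.0051), with r = -0.70 without the 2 farthest libraries and -0.89 within groups. The part that other cells play in these levels was not tested.

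**Figure D5:**
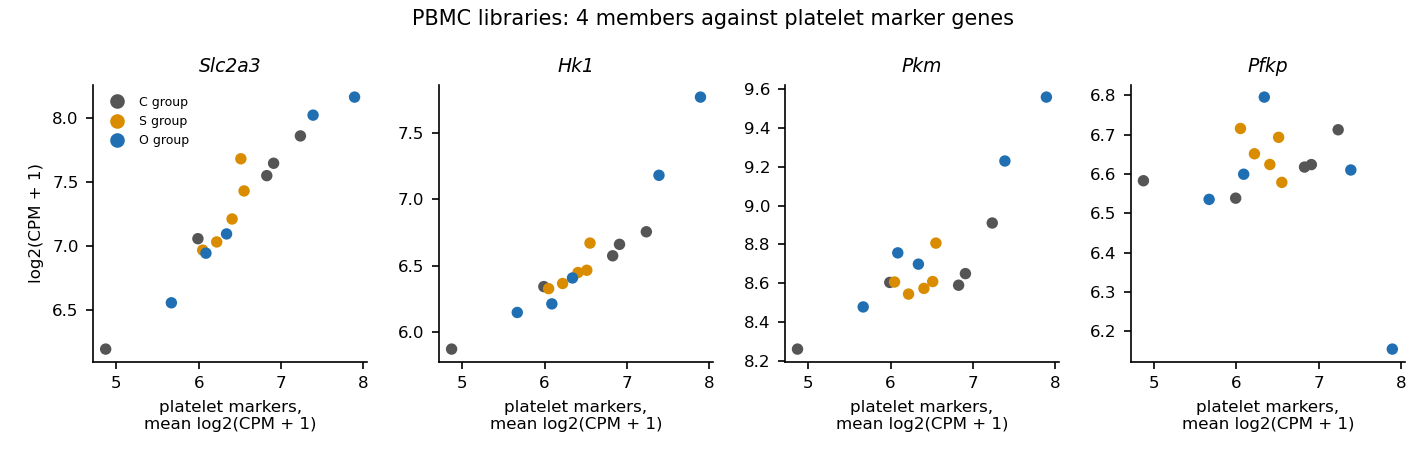
Log2(CPM + 1) of Slc2a3, Hk1, Pkm and Pfkp in the 15 PBMC libraries (vertical) against the mean log2(CPM + 1) of 14 platelet marker genes (horizontal), coloured by group. Slc2a3, Hk1 and Pkm rise with the markers, with r of 0.97, 0.93 and 0.86, while Pfkp does not and has its lowest value in the library with the highest markers.

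Whether a group difference was the same in both tissues was tested as an interaction over all 30 libraries. Gapdh was called for S group against C group, with a difference between tissues of 3.41 on the log2 scale (adjusted P = 0.74 by edgeR), and for S group against O group, with 2.79 (adjusted P = 0.26 by edgeR). These are 1 of 10 genes each, against backgrounds of 5.38% and 13.6% of 16498 genes. Without platelet S group replicate 3 the values were 1.04 and 0.59, with the copies counted they were 0.39 and -0.014, and with the replicate number as a block they were 1.86 and 1.23. None of these 6 values passed the unadjusted threshold. For O group against C group 0 of 10 genes were called, against 6.59%, with 0 also by DESeq2.

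Neighbouring pathways were read as lists. Of 24 other glycolysis isoenzymes and transporters 18 were tested between tissues, and 6 were higher and 9 lower in platelets, with a median log2 fold change of -0.40. For the pentose phosphate pathway 5 of 8 were higher and 1 lower, led by Taldo1 (3.17 ± 0.23) and H6pd (-2.80 ± 0.17). For glycogen metabolism 10 of 16 were higher and 4 lower, led by the brain-type phosphorylase Pygb (2.98 ± 0.16) and the kinase subunit Phka2 (-1.75 ± 0.10). For the tricarboxylic acid cycle 11 of 18 were higher and 2 lower, led by Mdh1 (0.95 ± 0.08) and Sucla2 (0.88 ± 0.09). Among 18 regulators 9 were higher and 6 lower, led by the pyruvate dehydrogenase kinase Pdk2 (1.21 ± 0.11) and the pyruvate carrier subunit Mpc1 (1.02 ± 0.11). Of 7 gluconeogenesis genes 3 were tested, and 2 were higher. All of these stand against 36% of genes higher and 45.2% lower.

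The other glycolysis isoenzymes and transporters were also called in part between groups. In platelets of O group against C group 4 of 18 were higher and 0 lower, against the background of 4.79% in either direction. Among them were Hk2 (0.77 ± 0.28) and Hk3 (1.33 ± 0.52), each with an adjusted P of 0.91 by edgeR. Hk3 was 54.2 CPM in O group replicate 1 and 10.0 to 14.0 CPM in the other O group libraries, and without that library the log2 fold change was 0.54 and not called. The Hk3 call was also lost without C group replicate 4 (1.22) or 5 (1.14), while Hk2 kept its call without any 1 library. In the same comparison 4 of 10 tested neutrophil markers were higher, whose part was not tested. In platelets of S group 3 of 16 were lower and 0 higher against O group, and 2 of 17 higher and 1 lower against C group, where the backgrounds were 13.9% and 6.42%. In PBMCs 4 of 17 were higher in O group than in C group (background 11.9%), 2 of 17 lower in S group than in O group (12.2%), and 0 of 18 called in S group against C group (2.64%).

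Between platelets of S group and O group, glycogen metabolism held the most calls of these lists. Of 16 genes 6 were lower and 0 higher, against a background of 6.67% lower, with a median log2 fold change of -0.38. The smallest P was that of the liver phosphorylase Pygl (-1.47 ± 0.31, adjusted P = 0.23 by edgeR), followed by the phosphoglucomutase Pgm2 (-0.51 ± 0.15, adjusted P = 0.26 by edgeR). In O group against C group Pygl was higher by 1.48 ± 0.38 (adjusted P = 0.91 by edgeR), and 4 of 10 tested neutrophil markers were higher in the same comparison, against the background of 4.79% in either direction, and their part was not tested. In PBMCs of S group against O group 4 of 16 were lower and 1 higher, against 7.8% lower and 4.43% higher among all genes. The bisphosphoglycerate mutase Bpgm, an enzyme of red cells, was higher in PBMCs of O group than of C group by 2.80 ± 0.66 (adjusted P = 0.34 by edgeR), where summed erythroid markers ran from 6.76% to 27.4% of counts in O group and from 3.38% to 9.78% in C group. The part of red cells in this value was not tested. The pyruvate dehydrogenase kinase Pdk3 was higher in O group than in C group in PBMCs (0.72 ± 0.24) and in platelets (0.99 ± 0.45), with adjusted P values of 0.35 and 0.91 by edgeR.

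Among themselves, Aldoa and Pkm varied most alike over the 15 platelet libraries (r = 0.97), followed by Hk1, and Pkm and Hk1 most alike over the 15 PBMC libraries (r = 0.95), on one shared scaling. Pfkp stood apart in both, with correlations to the other 9 genes from -0.29 to 0.14 in platelets and from -0.73 to 0.00 in PBMCs. The genes outside the lists whose levels ranked most like the mean of the 10 were Calm3 and Dok1 (Spearman's rho = 0.98 each) and Cnn2 (0.97) among 7604 genes in platelets, and Nfe2 (0.98), P2rx1 (0.96) and Gnai2 (0.96) among 7731 genes in PBMCs, each over 15 libraries. Nfe2 is a transcription factor of megakaryocytes and P2rx1 an ATP receptor of platelets, and these correlations are given as descriptions only.

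Promoters of glycolysis genes are textbook sites of hypoxia-inducible factors, whose core sequence is ACGTG or GCGTG. RefSeq (GRCm38.p6) gave 16 promoters for 9 of the 10 genes, and Slc2a3 had no entry. The letters ACGTG or their reverse complement CACGT, which overlap within the palindrome CACGTG, occurred in the 250 bases before the start in 5 of the 16 promoters (31.2%), those of Aldoa, Pgk1, Pkm and Ldha, against 16.6% of all 32851 promoters. The 2 Aldoa promoters among the 5 overlap and hold the same single match. The letters GCGTG or CACGC occurred in 7 of the 16 promoters (43.8%), those of Hk1, Pfkp, Gapdh, Eno1 and Ldha, against 28.2% of all promoters, and 12 of the 16 (75%) held either core, against 38.6% of all. Promoters of Aldoa and of Eno1 overlap in part, so the 16 are not independent. Ldha had the most ACGTG matches, at 3 places, and Pgk1 had 2. These are shown with the ACGTG and CACGT matches in capitals, Ldha at chr7:46845554-46845803 on the plus strand and Pgk1 at chrX:106186850-106187099 on the plus strand.
Ldha: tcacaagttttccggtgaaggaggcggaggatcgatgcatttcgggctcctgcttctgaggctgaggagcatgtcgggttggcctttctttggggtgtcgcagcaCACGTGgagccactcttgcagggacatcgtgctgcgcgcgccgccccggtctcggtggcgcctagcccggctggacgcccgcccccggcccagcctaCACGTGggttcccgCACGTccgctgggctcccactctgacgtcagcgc
Pgk1: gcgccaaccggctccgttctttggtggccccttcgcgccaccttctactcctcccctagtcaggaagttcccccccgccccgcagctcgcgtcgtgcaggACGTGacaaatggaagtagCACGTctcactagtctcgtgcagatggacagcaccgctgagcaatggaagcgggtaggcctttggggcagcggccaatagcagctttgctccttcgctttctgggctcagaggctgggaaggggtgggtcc
A match of these letters is a description and not a binding site.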

How the data were processed

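By the paper's methods, the company Novogene sequenced the poly-A RNA and provided alignment and mapping. Reads were filtered, mapped by HISAT2 2.0.5 and counted per gene by featureCounts 1.5.0-p3. The deposited values are raw counts of 54532 Ensembl genes, and whether strand was used is not given in the sources used here. The submitters' processing notes name mm9, but 643 of 664 gene positions in the supplement equal those of GRCm38, so GENCODE M21 (GRCm38) gave names, lengths and positions. A second locus annotated as Aldoa was left out. Tissue and group were taken from titles, since platelet samples carry PBMC as their cell type.

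Analyses used R 4.3.3 with edgeR 4.0.16 (quasi-likelihood test, filterByExpr, TMM), DESeq2 1.42.0 and limma 3.58.1. Each pair of groups was fitted alone and called at an unadjusted P under 0.05, the study's threshold, with Benjamini-Hochberg values beside it. Tissues were called at an adjusted P under 0.05. A standard error is the log2 fold change divided by the square root of F, and tests are two-sided. Shares used exon length and exact permutation (5 against 5) or 100000 resamples. The fits were tested on simulated data with few changed genes, as many up as down. Such data could not check the scaling between tissues. Replicates are pools, and P values measure the spread between them. PBMC libraries with the same number in S group and C group deviated together (r = 0.30 to 0.58 in 5 of 5 pairs), so the numbers pair there, and the block called 0 genes as the main fit did.

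The members and lists were chosen with earlier results of these data known. All 10 genes are given with their levels and tissue difference. Between groups, folds are given for those with P under 0.05, isoenzymes by value, and other lists by counts and their 2 smallest P values. Like-pattern genes had a mean of at least 10 CPM. Pkm in PBMCs was named after its values were seen. Copies were counted together with the genes as an alternative chosen after seeing the data. Other alternatives were RLE factors, library totals, no filter, voom, DESeq2, a replicate block, all 3 groups in 1 fit, plain counts, representative transcript lengths (chosen after seeing the data) or medians for shares, and leaving out each library.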

Additional observations from a re-analysis of the deposited data

Results flagged for a closer look

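Of 60 groups of 5 libraries, 6 held a library of the 10 genes far from the other 4 by Dixon's criterion, which flags about 1 in 20 groups by chance. Gapdh in platelet S group replicate 3 was 105 CPM, against 2.73 to 7.94 CPM in the others. Pfkp in platelet O group replicate 1 was 45.5 CPM, against 76.2 to 81.3 CPM, in the library with the highest erythroid markers (41.3% of counts). The other 4 were in PBMC S group replicate 1, which had the highest summed platelet markers of its group. Aldoa was 265 CPM there, against 178 to 187 CPM, and Pkm was 447 CPM, against 372 to 389 CPM. Ldha was 187 CPM, against 146 to 152 CPM, and Gapdh was 17.8 CPM, against 7.49 to 9.57 CPM. The cause was not tested.

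The difference between tissues was called for Gapdh at an unadjusted P under 0.05, at 3.41 on the log2 scale for S group against C group and 2.79 for S group against O group by edgeR. Both rest on platelet S group replicate 3, without which they were 1.04 and 0.59.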

How the results depend on the processing

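Between tissues, 9 genes were called with DESeq2, RLE factors, no filter, S group alone and O group alone (there Gapdh and not Pfkp), and 10 with voom, library totals, the block, copies and C group alone, and leaving out a library gave 9 to 10. Library totals called 6 genes higher and 4 lower, and turned Eno1 to -0.69 and Ldha to -0.30 on the log2 scale, both called. Gapdh turned to 1.44 with S group libraries alone, where it was not called, and to 1.81 with its copies, while it was called lower with voom (-1.67), the block (-1.48), C group alone (-2.14) and O group alone (-1.51), and its difference between tissues for S group against O group turned to -0.014 with copies. Where 1 gene was called in platelets of S group against C group, DESeq2, which gave no P for Gapdh, called 0, as did voom and counting with copies. Where 2 genes were called in platelets of S group against O group, voom and the replicate block called 0, and library totals, no filter and counting with copies called 1. In PBMCs of S group against O group 0 became 1 with DESeq2, no filter, the block and all 3 groups in 1 fit (Pkm, lower), and with library totals (Tpi1, higher). In PBMCs of O group against C group 0 became 1 with DESeq2 and all 3 groups in 1 fit (Pkm, higher) and 2 with library totals (Tpi1 and Gapdh, lower). For the differences between tissues, counting with copies and the block took 1 to 0 for S group against C group and for S group against O group, and library totals gave 2 for S group against O group and for O group against C group. Leaving out each library gave 0 to 1 genes in platelets of S group against C group, 1 to 3 against O group (3 without O group replicate 2, 3 or 5), and 0 to 1 for O group against C group (1 without C group replicate 3 or O group replicate 2). In PBMCs it gave 0, 0 to 3 (without O group replicate 5, Hk1, Pgk1 and Pkm) and 0 to 1 (1 without C group replicate 4 or O group replicate 3 or 5), and for the differences between tissues 0 to 1, 0 to 3 (3 without platelet O group replicate 3) and 0. Of the isoenzyme shares 7 were called, 6 with the median as the statistic and without any 1 platelet library of S group, and 8 without platelet C group replicate 4. Plain counts cut the tissue difference by over 1.5 times for Slc2a3, Ldha and Eno1, and representative transcript lengths for Aldoa and Eno1, with every sign and call between tissues kept. Outside PBMC S group and C group, in no pair of groups or tissues did all 5 same-numbered pairs correlate above 0.1 (-0.25 to 0.64, with at most 4 of 5 above it, as between the tissues of O group), and the sources do not say that a number marks shared mice. With the block the 9 genes other than Gapdh and the 6 shares kept their calls between tissues. The backgrounds given above belong to the main fits, and the shares of all genes called under these alternatives are not given here. The cause of these changes was not tested. Genes at few counts, such as Gapdh in platelets, have wide errors.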
